A study of Mus musculus with 16 samples.

Results

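TREM and CD300 proteins are immunoglobulin-like receptors of myeloid cells. The genes described here are the TREM receptors Trem1, Trem2 and Treml2, the CD300 receptors Cd300a, Cd300lb, Cd300ld and Cd300lf, and the adaptors Tyrobp and Hcst. They were chosen by symbol, as members of these receptor families and their adaptors, with earlier results of these data known. All 9 had a row among the 24015 rows of the deposited expression table. The study measured, by RNA-seq, microglia of the mouse hippocampus at 3 months (young, n = 6) and 20 months of age (aged, n = 6). The cells were sorted live as CD11b+CD45lo, the usual gate for microglia, and amplified by a full-length cDNA method that does not mark the strand. All young samples and aged samples 1 to 4 carry the strain label C57BL/6, and no allele, treatment or agent is named for either age. The strain labels of aged 5 and aged 6 differ from it in the last digit, which may be an entry error. The labels do not say whether a sample was 1 mouse or a pool, nor the sex, so every p-value below measures the spread between these samples.

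A TREM or CD300 receptor of the activating kind has a short tail and borrows its signal from an adaptor. Tyrobp (DAP12) carries an ITAM, which recruits the kinase Syk, and Hcst (DAP10) carries a YINM motif, which recruits PI3-kinase. Receptors of the inhibitory kind carry ITIMs in their own tail and recruit phosphatases. In microglia, Trem2 with Tyrobp binds lipids and lipoproteins, including those that hold Apoe, and supports phagocytosis, survival and the shift to the disease-associated state. Loss of either TREM2 or TYROBP causes Nasu-Hakola disease in humans.

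The expression values are normalized counts. In the 8 samples made from 1 library each, whole reads could be recovered from them, and their depth ran from 11.4 to 47.3 M reads. The other 4 samples (young 2, young 4, aged 3 and aged 6) joined 2 libraries each. The summed microglia markers ran from 48810 to 51478 CPM (counts scaled to the total of the sample) in young and from 41005 to 47395 in aged samples, with no overlap (exact permutation test, p = 0.0022, the smallest it can give, and adjusted p = 0.0087 over the 8 marker lists). The microglia markers differed among themselves. Fcrls had a log2 fold change of -0.47 (limma, adjusted p = 3.8e-04), Sall1 and Siglech had 0.05 each, and the others lay from -0.30 to -0.04. The summed monocyte markers were low, at 3.50 to 8.15 CPM in young and 6.72 to 10.6 in aged samples (exact permutation test, adjusted p = 0.069). The neutrophil list was nearly all Csf3r, and Stfa2l1 was listed at 0. The B cell list was nearly all Cd79b, with Pax5 listed at 0. The border macrophage list was nearly all Stab1 (18394 ± 2086 and 18402 ± 2053 normalized counts, SD, n = 6 each), so its sum says little of its other genes. Of its 8 genes tested, 7 were higher in the aged mean on the log2 scale (median of the list 0.54), and limma called 0 and passed 3 (F13a1, Cd163 and Ms4a7) at an unadjusted p under 0.05. F13a1 had 33.2 ± 28.4 and 97.7 ± 56.0 normalized counts (SD, n = 6 each; limma, adjusted p = 0.172). The part of these differences in the results below was not tested. In bulk samples, fewer cells of a type and less RNA per cell cannot be told apart.

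None of the 9 genes passed the test for an age difference across all genes; Trem1 was too low for it (exact permutation test, p = 0.455). Of the 11579 genes with at least 10 normalized counts in at least 6 samples, limma called 1.73% at an adjusted p under 0.05 (1.27% higher and 0.458% lower in aged samples). Among the 8 receptor and adaptor genes that met this filter it called 0. At an unadjusted p under 0.05, limma passed 1 of the 8 (Cd300lb), beside 10.8% of all genes tested. On whole reads of the 8 samples with 1 library, edgeR and DESeq2 each called 0 of the 8 and each passed 1 (Cd300a) at an unadjusted p under 0.05. The log2 fold changes of aged over young were above 0 for 4 genes and below 0 for 4, with a median of 0.07, against 0.0016 for all genes tested.

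**Figure D1:**
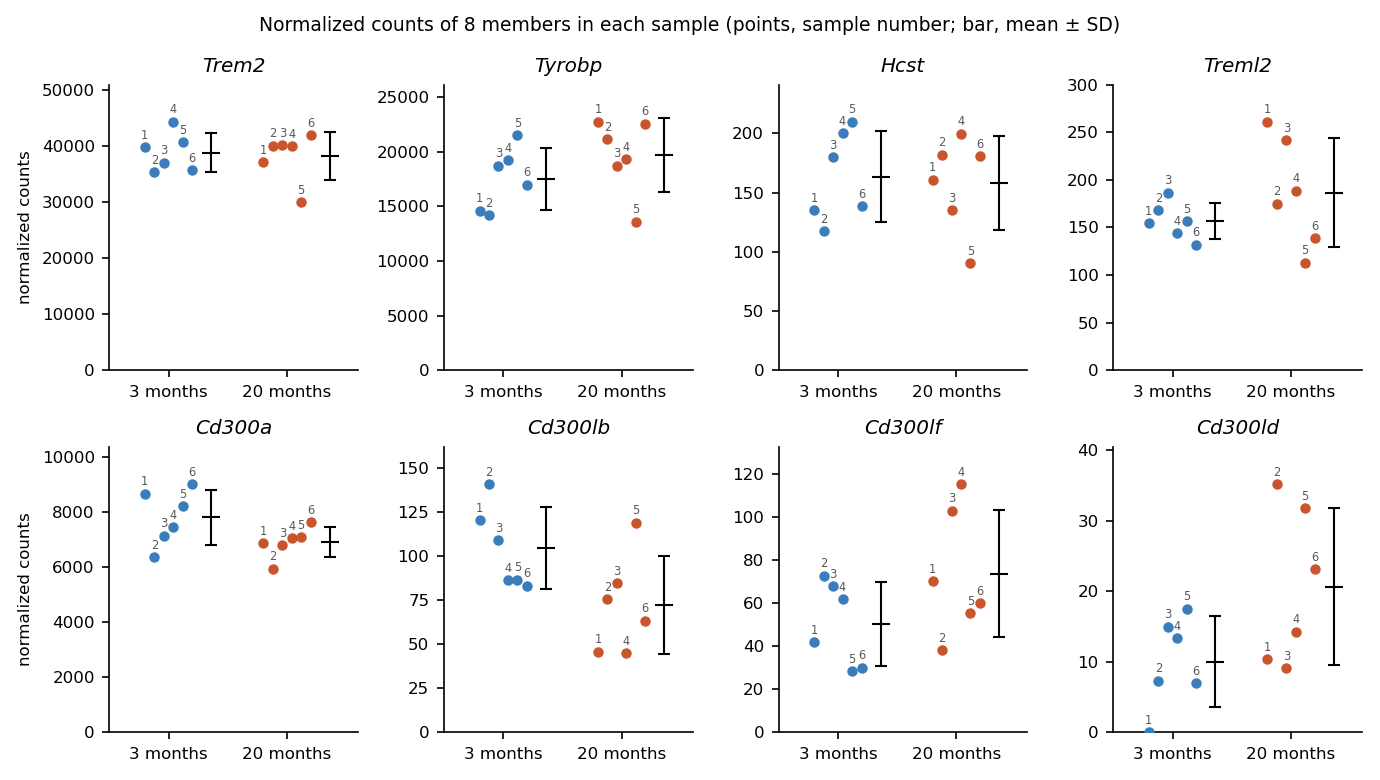
Normalized counts (vertical axes, linear from 0) of the 8 genes that met the filter, in 6 samples of 3 months (blue) and 6 of 20 months (orange). Points are samples with their number and bars are the mean ± SD. The ages overlap for every gene, and aged 5 is the lowest sample for Trem2, Tyrobp, Hcst and Treml2.

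Of these genes, 4 are shown by the 300 bases around their start site, 250 before to 50 after. Trem2 and Hcst were chosen because their levels varied together across the samples by Pearson r, though not by Spearman rho after adjustment. Cd300lb and Cd300lf were chosen because their age differences, neither of which passed after adjustment, had opposite signs. Tyrobp and Treml2 had no promoter entry. The sequences are from RefSeq on GRCm38.p6, read in the direction of each gene. Capitals mark GGAAGT and GAGGAA, core forms of the site bound by Ets-family factors such as PU.1, found on either strand, so that the opposite strand reads as ACTTCC or TTCCTC. The motifs overlap in the stretch GAGGAAGT. Trem2 is at chr17:48346151-48346450 on the plus strand, Hcst at chr7:30419805-30420104 on the minus strand, Cd300lb at chr11:114934322-114934621 on the minus strand and Cd300lf at chr11:115133943-115134242 on the minus strand.
Trem2: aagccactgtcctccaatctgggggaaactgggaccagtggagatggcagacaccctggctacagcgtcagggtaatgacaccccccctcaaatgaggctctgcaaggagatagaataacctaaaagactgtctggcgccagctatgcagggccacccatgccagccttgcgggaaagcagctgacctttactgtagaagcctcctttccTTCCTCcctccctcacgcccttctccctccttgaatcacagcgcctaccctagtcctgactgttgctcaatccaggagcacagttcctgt
Hcst: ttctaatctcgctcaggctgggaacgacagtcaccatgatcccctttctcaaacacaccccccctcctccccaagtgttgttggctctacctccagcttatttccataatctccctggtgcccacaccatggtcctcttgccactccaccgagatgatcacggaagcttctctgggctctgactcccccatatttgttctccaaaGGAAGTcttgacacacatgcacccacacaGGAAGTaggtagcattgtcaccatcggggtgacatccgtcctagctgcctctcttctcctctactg
Cd300lb: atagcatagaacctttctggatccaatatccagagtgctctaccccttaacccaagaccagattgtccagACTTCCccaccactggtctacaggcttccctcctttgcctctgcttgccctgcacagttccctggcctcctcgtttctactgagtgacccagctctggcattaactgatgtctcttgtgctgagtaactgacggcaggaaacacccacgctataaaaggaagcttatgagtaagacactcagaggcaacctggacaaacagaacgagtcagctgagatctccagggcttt
Cd300lf: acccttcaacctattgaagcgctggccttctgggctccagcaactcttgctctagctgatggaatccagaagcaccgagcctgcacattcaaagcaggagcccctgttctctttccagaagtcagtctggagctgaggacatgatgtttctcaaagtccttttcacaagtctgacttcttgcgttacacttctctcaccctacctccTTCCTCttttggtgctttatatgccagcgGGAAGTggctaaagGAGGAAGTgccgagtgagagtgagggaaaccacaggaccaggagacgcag

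With positions counted from the start site, Trem2 had 1 GAGGAA match at -40 on the opposite strand and no GGAAGT. Hcst had GGAAGT at -45 and at -16. Cd300lb had 1 GGAAGT match at -180 on the opposite strand, farther from the start than those of Trem2, Hcst and Cd300lf. Cd300lf had 4 matches, GAGGAA at -43 on the opposite strand, GGAAGT at -14, and the overlapping GAGGAA at 1 and GGAAGT at 3. Of the 7 genes with an entry, 5 held GGAAGT and 5 held GAGGAA, while 23.8% and 28.3% of 32851 promoters of the same length did. Trem1, which had almost no reads in these samples, also held both motifs. A match describes letters only.

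Trem2, at chr17:48346401-48354147 (plus strand, GRCm38, GENCODE vM21), was the most abundant receptor of the set per length. Its level ranged from 35261 to 44306 normalized counts in young samples, with a median of 38383, and from 29986 to 41929 in aged samples, with a median of 40000. The ages overlapped throughout, with young 4 the highest and aged 5 the lowest of the 12. The means were 38783 ± 3472 (SD, n = 6) in young and 38192 ± 4304 (SD, n = 6) in aged samples. The log2 fold change was -0.03 (limma, SE 0.083, 95% interval -0.20 to 0.15, adjusted p = 0.955). As a ratio, the interval ran from 0.870 to 1.11, so a larger change of the mean in either direction lies outside it. The sign of this small difference turned in 4 of 26 alternative settings.

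Tyrobp is the adaptor through which Trem2 signals. Its level ranged from 14184 to 21471 normalized counts in young samples (median 17850) and from 13596 to 22725 in aged samples (median 20224). Aged 1 and aged 6 stood above every young sample, while aged 5 stood below every young sample. The means were 17528 ± 2830 (SD, n = 6) and 19674 ± 3398 (SD, n = 6), and the log2 fold change was 0.16 (limma, SE 0.12, 95% interval -0.10 to 0.42, adjusted p = 0.753). It was 0.10 without young 2, 0.09 on the 8 samples with 1 library and 0.26 without aged 5 (limma, adjusted p = 0.255 for the last). With the summed monocyte and neutrophil markers as a covariate it was 0.33 (limma, adjusted p = 0.0883). That sum was nearly all Csf3r, which was highest in aged 5 (25611 normalized counts), the lowest sample for Tyrobp. This setting therefore says little of the other monocyte and neutrophil markers.

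Hcst is the adaptor that feeds PI3-kinase. It ranged from 118 to 210 normalized counts in young (median 159) and from 90.3 to 199.8 in aged samples (median 171). Young 5 was the highest and aged 5 the lowest, and the ages overlapped. Its log2 fold change was -0.06 (limma, SE 0.20, 95% interval -0.49 to 0.37, adjusted p = 0.958), and its sign turned in 5 of 26 alternative settings. Hcst (chr7:30417712-30419854, minus strand) and Tyrobp (chr7:30413760-30417585, plus strand) lie end to end, with 126 bases between their annotated ends (GRCm38, GENCODE vM21). The libraries do not mark strand, so reads that ran past either end cannot be assigned to a gene by strand.

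Treml2, at chr17:48299498-48312533 on the plus strand, encodes a TREM-like receptor of macrophages, neutrophils and B cells. It ranged from 132 to 187 normalized counts in young (median 156) and from 113 to 261 in aged samples (median 182). Aged 1, aged 3 and aged 4 stood above every young sample and aged 5 below every young sample. The SD was 18.9 in young and 57.4 in aged samples (n = 6 each). The log2 fold change was 0.20 (limma, SE 0.19, 95% interval -0.21 to 0.60, adjusted p = 0.825), and no setting called it. It was 0.09 without aged 1, 0.11 without aged 3, 0.33 without aged 5 and 0.45 without aged 5 and aged 6 (limma, adjusted p = 0.214 for the last).

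Trem1 (chr17:48232768-48246924, plus strand), an amplifier of inflammation on neutrophils and monocytes, was at the floor. It was above 0 in young 2, young 5 and aged 6, at 0.440, 0.566 and 0.426 normalized counts, and at 0 in the other 9 samples. In the 8 samples with 1 library, 1 read fell on it in all, in young 5. A count of 0 reads allows up to 3 reads in a sample, by counting error alone.

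Cd300a (chr11:114890041-114904654, plus strand), an ITIM-bearing receptor for the phospholipids exposed on dying cells, was the most abundant of the 4 chosen CD300 genes per length. It ranged from 6360 to 9003 normalized counts in young (median 7827) and from 5939 to 7615 in aged samples (median 6953). Young 1, young 5 and young 6 stood above every aged sample, and the rest overlapped. The means were 7799 ± 999 (SD, n = 6) and 6888 ± 548 (SD, n = 6), with a log2 fold change of -0.17 (limma, SE 0.086, 95% interval -0.35 to 0.0075, adjusted p = 0.494). The exact permutation test gave p = 0.089. With 1 sample left out this p ran from 0.017 (without young 2) to 0.175, and was under 0.05 in 1 of 12 cases.

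Cd300lb (chr11:114922781-114934386, minus strand) encodes an activating receptor that couples to Tyrobp. It had 83.3 to 141 normalized counts in young (median 97.7) and 45.0 to 119 in aged samples (median 69.4). Aged 1, aged 2, aged 4 and aged 6 stood below every young sample, aged 3 lay just inside the young range, and aged 5 lay among the highest young samples. The means were 104 ± 23.3 (SD, n = 6) and 72.2 ± 27.8 (SD, n = 6). The log2 fold change was -0.58 (limma, SE 0.24, 95% interval -1.09 to -0.07, unadjusted p = 0.028), and the adjusted p of limma was 0.355. The exact permutation test gave an unadjusted p of 0.045, which was up to 0.0996 when 1 sample was left out, and under 0.05 in 3 of those 12 cases (without young 6, aged 3 or aged 5). These values rest on 41 to 167 reads a sample in the 8 samples with 1 library.

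Cd300lf (chr11:115116214-115133992, minus strand) encodes an inhibitory, ITIM-bearing receptor. It had 28.3 to 72.8 normalized counts in young (median 51.8) and 38.2 to 115 in aged samples (median 65.0). Aged 3 and aged 4 stood above every young sample and the other 4 lay in the young range. The log2 fold change was 0.54 (limma, SE 0.31, 95% interval -0.12 to 1.19, adjusted p = 0.608). Aged 4, the highest sample for Cd300lf and the lowest for Cd300lb, was also the highest for 6 of the 12 neutrophil markers in the table, among them S100a8 (43.9 normalized counts, against 0.566 to 11.4 in the other samples) and S100a9 (45.0). It was not the highest for Csf3r or Mmp9, and Cxcr2 and Mmp8 were at 0 there. Their part in these levels was not tested.

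Cd300ld (chr11:114982274-114989922, minus strand), an activating receptor of the same cluster, was near the limit of detection. It had 0 to 17.5 normalized counts in young (median 10.3) and 9.09 to 35.2 in aged samples (median 18.7), and aged 2, aged 5 and aged 6 stood above every young sample. Young 1, the shallowest library, had 0 reads, which allows up to 3 reads, or 7.37 normalized counts there. The log2 fold change was 1.25 (limma, SE 0.64, 95% interval -0.10 to 2.60, adjusted p = 0.521), and it was 0.64 without young 1 (limma, adjusted p = 0.780).

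**Figure D2:**
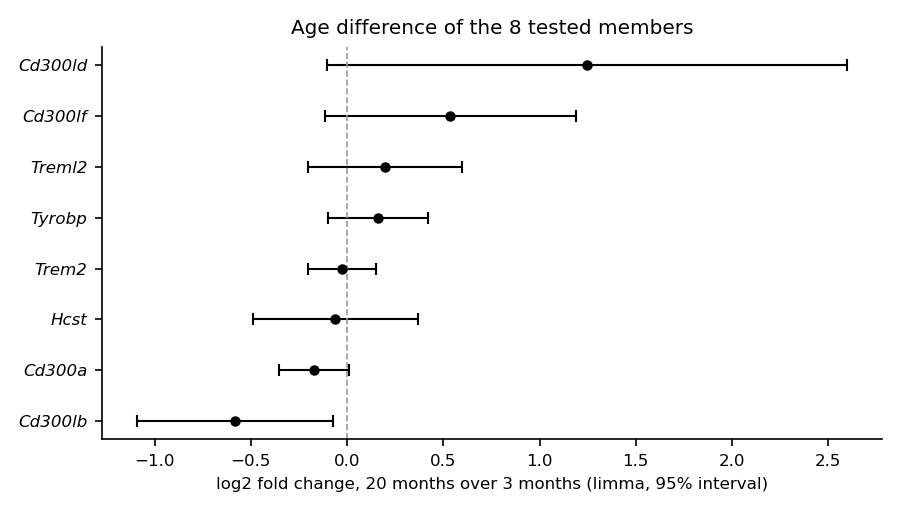
Log2 fold change of aged over young samples (horizontal axis) for the 8 genes that met the filter, with the 95% interval from limma (6 samples an age). Only the interval of Cd300lb leaves out 0, and its adjusted p was 0.355. The interval is narrowest for Trem2 and widest for Cd300ld.

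Per kilobase of the principal transcript, the mean level over the 12 samples was 35374 normalized counts for Trem2 and 32981 for Tyrobp, and the sample ranges of this pair overlapped. Cd300a followed at 1581, Hcst at 364 and Treml2 at 82.0 normalized counts per kilobase, each apart from its neighbour above. Cd300lf stood at 33.3, Cd300lb at 30.7 and Cd300ld at 5.80 on the same scale. The ranges of Treml2 and Cd300lf, and of Cd300lf and Cd300lb, overlapped. The order within the pairs Trem2 and Tyrobp, and Cd300lf and Cd300lb, depends on the length used. With the union of all annotated exons, chosen after seeing the data, Tyrobp stood 3.58-fold above Trem2 without overlap, and Cd300lb stood 2.51-fold above Cd300lf with overlap. Hcst was then at 223 and Treml2 at 34.9 normalized counts per kilobase. Trem2 lay at the 99.5th and Tyrobp at the 98.6th percentile of the normalized counts of all genes tested, which are not per length.

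Ratios between these genes within a sample hardly depend on how the sample was scaled, and 3 were compared. Trem2 over Tyrobp ran from 1.89 to 2.73 in young and from 1.63 to 2.21 in aged samples (exact permutation test, p = 0.110, adjusted p = 0.110). Hcst over Tyrobp ran from 0.00823 to 0.0105 and from 0.00671 to 0.0104 (exact permutation test, p = 0.071, adjusted p = 0.107). With 1 sample left out, the exact permutation p of this ratio ran from 0.015 (without aged 4, adjusted p = 0.045) to 0.136, and was under 0.05 in 1 of 12 cases. The inhibitory Cd300lf over the activating Cd300lb ran from 0.334 to 0.721 in young samples, with a median of 0.438, and from 0.470 to 2.53 in aged samples, with a median of 1.07. Of the aged samples, 4 stood above every young sample, while aged 2 and aged 5 lay in the young range. The difference of the log2 ratio was 1.12, or 2.17-fold (exact permutation test, p = 0.032, adjusted p = 0.097). With 1 sample left out it ran from 0.85 (without aged 4) to 1.34 (without aged 5), and the exact permutation p from 0.015 to 0.061, under 0.05 in 6 of 12 cases before adjustment. After adjustment it was under 0.05 without aged 5 alone (exact permutation test, adjusted p = 0.045). This is 1 chosen pair, and the other inhibitory and activating genes had the opposite signs, with log2 fold changes of -0.17 for Cd300a and 1.25 for Cd300ld.

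**Figure D3:**
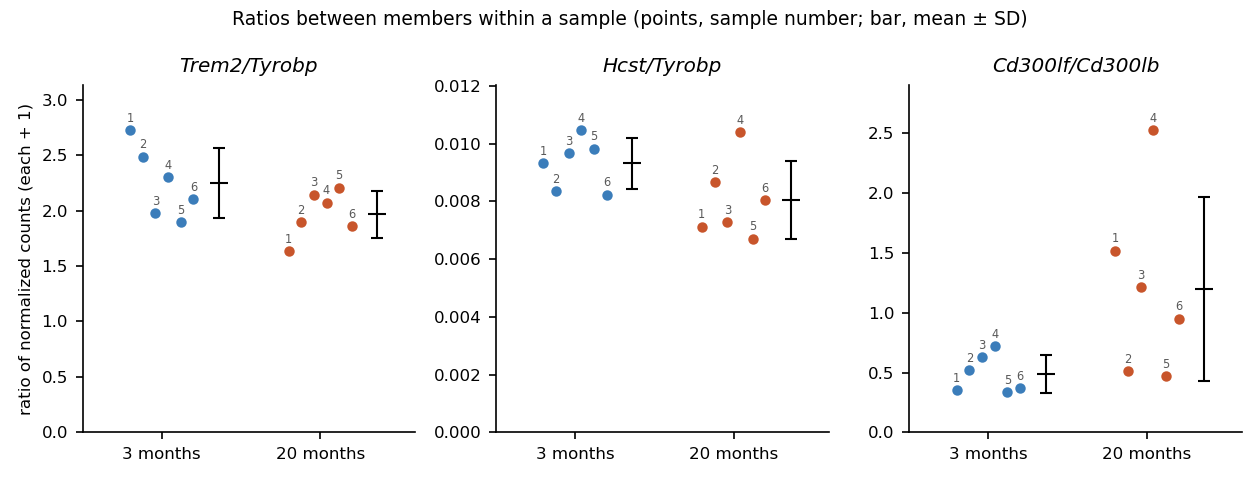
Ratios of normalized counts (each + 1, linear axes from 0) within each of 6 samples of 3 months (blue) and 6 of 20 months (orange). Points are samples with their number and bars are the mean ± SD. Cd300lf over Cd300lb spans 0.334 to 0.721 in young and 0.470 to 2.53 in aged samples.

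The adaptors varied together by r, though not by rho after adjustment. Over the 12 samples and the 28 pairs of these genes, Tyrobp and Hcst had r = 0.81 (permutation p = 0.0014, adjusted p = 0.024) and rho = 0.73 (permutation p = 0.010, adjusted p = 0.095). The value of r was 0.60 without young 2 and aged 5, and 0.90 with each age centred on its mean. This is not particular to the adaptors. By r, Hcst ranked 345th among 10210 genes for likeness to Tyrobp, and Tyrobp 195th for likeness to Hcst. The part of reads that ran past the end of either gene was not tested, here or in the Hcst over Tyrobp ratio. Trem2 and Hcst had r = 0.82 (permutation p = 0.0017, adjusted p = 0.024) and rho = 0.75 (permutation adjusted p = 0.095), with r = 0.48 without the 2 farthest samples. Tyrobp and Cd300lb moved in opposite directions, with r = -0.76 (permutation p = 0.0042, adjusted p = 0.040), rho = -0.76 (permutation adjusted p = 0.095) and r = -0.63 without the 2 farthest samples. No pair passed by rho after adjustment.

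Trem2 and its adaptor had r = 0.64 (permutation adjusted p = 0.146) and rho = 0.66 (permutation adjusted p = 0.152). The value of r was 0.20 without young 2 and aged 5, the 2 samples farthest from the median of Trem2. It was 0.71 with each age centred on its mean. The 12 samples also differed in ribosomal protein genes, whose sum was added after seeing the data. The sum of 85 such genes ran from 1747 CPM in aged 5 to 3742 in aged 2, with no age difference that passed (exact permutation test, p = 0.333). Over 12 samples its r was 0.94 with Tyrobp (permutation adjusted p = 1.6e-04, rho 0.92, and 0.96 without aged 2 and aged 5). It was 0.86 with Hcst (permutation adjusted p = 0.0019, rho 0.81), 0.73 with Trem2 (permutation adjusted p = 0.017, rho 0.70, and r = 0.57 without those samples) and -0.64 with Cd300lb (permutation adjusted p = 0.048), where rho was -0.65 and did not pass (permutation adjusted p = 0.051). The part of this variation in the relations between the receptors and adaptors was not tested.

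**Figure D4:**
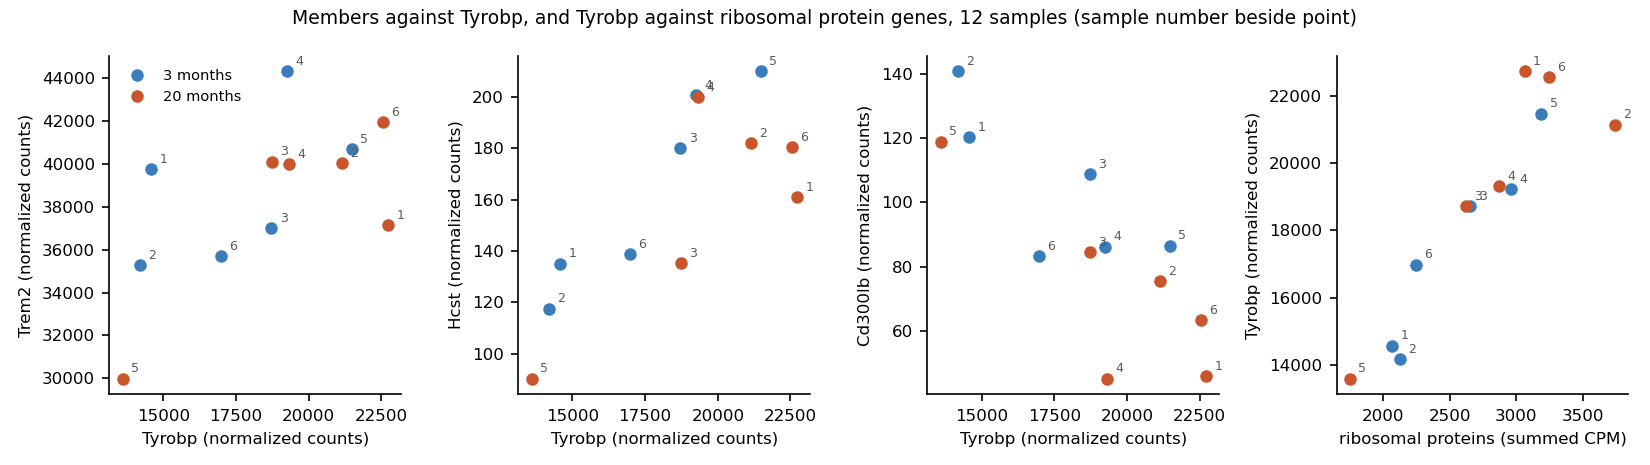
Normalized counts of Trem2, Hcst and Cd300lb against Tyrobp, and of Tyrobp against the summed CPM of 85 ribosomal protein genes, over 12 samples (blue 3 months, orange 20 months, number beside each point, axes not from 0). Aged 5 lies at the low end of Tyrobp, Hcst, Trem2 and the ribosomal sum.

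The genes whose pattern was most like each gene, by r over the 12 samples among 10210 genes, were a description without a test. For Trem2 they were Mzt2 (0.95), Clta (0.95) and Rps2 (0.92). For Tyrobp they were Cox6b1, Adi1 and Uqcrh (0.96 each). Hcst went with Rpl7a (0.95), Gm561 (0.95) and Fdx1 (0.93), and Treml2 with App (0.87), Sf3a1 (0.86) and Hnrnpm (0.83). Cd300a went with 1110051M20Rik (0.90), Pigu (0.90) and Pacrgl (0.88), and Cd300lb with Gpm6b (0.87), Grm3 (0.86) and Aagab (0.85). Cd300ld went with Dhrs4 (0.93), Ift27 (0.92) and Pdap1 (0.92), and Cd300lf with Trafd1 (0.90), Ddx54 (0.90) and Fgfrl1 (0.87).

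Among the other receptors that signal through Tyrobp or Hcst, 4 met the filter, and 1 rose. Beside this and the list counts that follow, limma called 1.73% of all genes tested. It passed 10.8% of them at an unadjusted p under 0.05. Cd200r4, an activating relative of the CD200 receptor that pairs with Tyrobp, had 20.8 to 42.6 normalized counts in young and 55.5 to 94.3 in aged samples, with no overlap. Its means were 30.0 ± 9.45 and 74.4 ± 12.9 (SD, n = 6 each), a 2.50-fold difference (limma, adjusted p = 0.0061). On the 8 samples made from 1 library each the call was lost by limma (log2 fold change 1.47, adjusted p = 0.051) and edgeR (1.43, adjusted p = 0.067) and kept by DESeq2 (1.43, adjusted p = 0.0034), beside 1.32 in all 12 samples. Of 2 other ITAM adaptors, Cd79b, the B cell receptor chain, fell from 1108 ± 85.2 to 864 ± 72.0 normalized counts (SD, n = 6 each; limma, adjusted p = 0.038). That call was lost in 13 of 26 alternative settings, among them without any 1 of young 1, 3, 4, 5 and 6 and aged 1 to 4 (limma, adjusted p from 0.053 to 0.110). The other of the 2, Fcer1g, had 16117 ± 2080 and 18350 ± 3132 normalized counts (SD, n = 6 each). Its log2 fold change was 0.18 (limma, adjusted p = 0.676).

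Of 43 genes that carry the signal below these adaptors, 1 fell and 42 did not pass. At an unadjusted p under 0.05, limma passed 5 of the 43. The one that fell was Fyn, a Src-family kinase, from 718 ± 106 to 451 ± 97.9 normalized counts (SD, n = 6 each; limma, adjusted p = 0.016), and its adjusted p reached 0.087 in the 3 of 26 settings that lost it. The median log2 fold change of the list was 0.04. Of 15 phosphatases and adaptors that dampen the signal, limma called 0 and passed 1 (Inppl1, SHIP2) at an unadjusted p under 0.05. Inppl1 had 1024 ± 160 and 1241 ± 187 normalized counts (SD, n = 6 each; limma, adjusted p = 0.359), and edgeR and DESeq2 also called 0 of these 15. The median of that list was -0.02.

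Of 11 ligands and partners of the TREM receptors, 1 rose, and limma passed 3 at an unadjusted p under 0.05. Apoe, a lipoprotein ligand of Trem2, averaged 17917 ± 5847 normalized counts in young and 32497 ± 7599 in aged samples (SD, n = 6 each), a 1.85-fold rise (limma, adjusted p = 0.018). That call was lost in 3 of 26 settings, among them without young 6 (limma, adjusted p = 0.053). Of 18 genes for shedding and trafficking of Trem2, limma and edgeR called 0 and DESeq2 called 1 (Ms4a6b), while limma passed 2 at an unadjusted p under 0.05. Ms4a6b had 2698 ± 212 and 2258 ± 118 normalized counts (SD, n = 6 each; limma, adjusted p = 0.083). Of 21 genes of the Trem2-dependent stage of disease-associated microglia, 1 rose, the receptor kinase Axl (2.35-fold; limma, adjusted p = 0.0016), and the median log2 fold change was -0.01. At an unadjusted p under 0.05, limma passed 5 of these 21. Without aged 5, it called 2 of them. Of 9 genes of the Trem2-independent stage, Apoe, Lyz2 (1.56-fold) and H2-D1 (1.93-fold) rose by limma, and the median was 0.23. At an unadjusted p under 0.05, limma passed 5 of the 9. Timp2 was in both lists and among the 5 of each. Trem2 and Tyrobp were in neither list. The difference between these lists was not tested. Of 3 other genes of the TREM and CD300 clusters that met the filter, limma, edgeR and DESeq2 called 0, and none passed an unadjusted p under 0.05. The most abundant was AF251705, with means of 5610 normalized counts in young and 5405.5 in aged samples (limma, adjusted p = 0.905). The smallest p was that of Treml4, with 15.8 ± 11.3 and 9.91 ± 6.67 normalized counts (SD, n = 6 each; limma, adjusted p = 0.822).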

How the data were processed

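Per the series' design text and the submitters' processing notes, the authors demultiplexed reads with bcl2fastq, trimmed them with fastx_trimmer, aligned them with STAR to mm10, counted with SAMtools and used DESeq2. None of these sources names a version. The values the authors deposited are normalized counts (unit signal, counts divided by size factors), 1 column a sample, with technical replicate libraries joined. Here log2(normalized count + 1) was tested with limma 3.58.1 (mean-variance trend, two-sided) in R 4.3.3. Benjamini-Hochberg adjustment ran over the 11579 genes with at least 10 normalized counts in at least 6 of 12 samples. The added 1 changes the fold change of low genes. For Cd300ld the log2 fold change was 1.42 with 0.5 added and 0.81 with 5 added. With 1 added, its fitted fold was 2.37, against a ratio of means of 2.06. Every value of the 8 samples with 1 library was a whole number of reads within 0.1 read, and edgeR 4.0.16 and DESeq2 1.42.0 were run on these. Exact permutation tests used 924 assignments, correlations 100000 permutations. Over all genes tested, same-numbered samples did not deviate together (r from -0.121 to 0.107), and the main test did not pair samples by number. These r cannot show whether some genes share a pairing. Scripts were checked on simulated data. The genes and lists were chosen with earlier results of these data known. Named are the 9 genes, list genes past the threshold (otherwise that with the smallest p), the 3 most alike genes, some marker genes, AF251705, Fcer1g and Timp2. Summed markers of border macrophages, T and NK, dendritic and mast cells gave exact permutation adjusted p of 0.844, 0.505, 0.312 and 1 for age, and neutrophil and B cell lists 0.312 and 0.0087.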

Additional observations from a re-analysis of the deposited data

Results flagged for a closer look

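Trem1 in aged 6, at 0.426 normalized counts, was marked by Dixon's test because the other 5 aged samples were at 0. With 5 tied zeros any value above 0 is marked, so the floor fixed this, and young 2 and young 5 held similar values (0.440 and 0.566). It was the 1 mark among 24 groups of 6 values, where chance gives about 1 in 20.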

How the results depend on the processing

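No receptor or adaptor gene was called in any of 26 alternative settings (25 for Cd300ld, which a filter at 50 normalized counts removed), over other pseudocounts, filters, scalings, limma options, covariates, tools and samples left out. The fitted difference kept its sign in 22 of 26 for Trem2 (-0.07 to 0.06) and 21 of 26 for Hcst. The smallest adjusted p were 0.0883 for Tyrobp (limma, marker covariate, nearly all Csf3r), 0.136 for Cd300lb (limma, without aged 5) and 0.160 for Cd300a (DESeq2). With the sample number as a replicate block, the log2 fold change of Cd300lb was -0.58 (limma, adjusted p = 0.425) and no call among these genes changed. The cause was not tested for the following changes. Leaving out 1 sample gave log2 differences from -0.30 to -0.17 for Hcst over Tyrobp and from 0.85 to 1.34 for Cd300lf over Cd300lb. The exact permutation p then ran from 0.0043 to 0.0996 for Cd300lb, from 0.017 to 0.175 for Cd300a and from 0.048 (without young 5) to 0.188 for Cd300ld. On the 8 samples with 1 library, exact permutation p was 0.143 for Cd300lb and 0.029 for Cd300a. Without aged 5 and aged 6 the exact permutation p of Treml2 was 0.014. Over all genes, limma called 200, 145 with the replicate block, and 134 to 235 with 1 sample left out. On the 8 samples limma called 78, edgeR 91 and DESeq2 235. Depth limits Cd300ld (0 to 35 reads a sample), Cd300lf (17 to 105) and Trem1 most.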
